A study of Rattus norvegicus with 18 samples.

Results

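The genes described here encode the machinery that releases neurotransmitter from synaptic vesicles. They were chosen by symbol: the synaptotagmins (Syt), syntaxins (Stx), syntaxin-binding proteins (Stxbp), Snap, Vamp, complexin (Cplx), Sv2, Rims and Unc13 genes, together with Syn1, Syn2, Syn3, Syp, the 4 Rab3 genes, Bsn and Pclo. Of the 17455 rows of the deposited count table, 74 met this rule, and all 74 had at least 10 counts in at least 3 libraries, so none fell outside on counts. The member nearest to that limit was Stx19, named for that reason, with 1 to 15 counts per library. All 74 were also among the 13338 genes expressed highly enough to be tested. The choice used symbols and a count minimum, and no difference between groups. The 4 Unc13 genes were kept although a letter, not a digit, follows Unc13 in their symbols, and without them 70 genes remain.

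Libraries of polyadenylated RNA came from the left hippocampus. The rats were adult male Sprague-Dawley animals, and 2 ways of producing temporal lobe epilepsy were used. In the kainic acid (KA) model, rats with implanted electrodes received rising systemic doses of kainic acid, a glutamate receptor agonist, until status epilepticus. In the kindling (KI) model, electrodes in the hippocampus delivered repeated electrical stimulation until the animals were fully kindled. Tissue of the seizure groups was taken 24 hours after the last seizure. Each model has its own sham group, so the KA and KI comparisons share no control library. The KA model has 7 sham libraries and 3 of the seizure group, called 3 Class V; the KI model has 4 sham and 4 of its 3 Class V group. What 3 Class V stands for is not explained for either model, nor is it said whether sham rats carried electrodes or when sham tissue was taken. The series design text gives the body weight of the rats and no age. Whether each library is a separate animal is not stated for every one, and otherwise the spread behind the p-values may be technical in part.

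A synaptic vesicle carries synaptophysin, SV2 and synapsins, and the small GTPase Rab3 helps to bring it to the active zone, a patch of membrane organised by the large scaffolds Bassoon and Piccolo and by RIM proteins. Munc13 proteins prime the vesicle, and the SNARE proteins VAMP2, syntaxin and SNAP-25 zip together, with complexin clamping the assembled complex. Calcium entering through nearby channels binds synaptotagmin 1, and the membranes fuse. Several relatives act elsewhere: Munc18-2, Munc13-4 and VAMP8 serve granule release in blood and immune cells, and many syntaxins and VAMPs serve traffic between the Golgi apparatus, endosomes and lysosomes.

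Levels are given as CPM, read counts scaled by library size and composition. CPM is not scaled by gene length, so levels are compared between libraries and not between genes. A gene is called when its edgeR quasi-likelihood p, adjusted by the Benjamini-Hochberg method over all genes tested, is under 0.05. Changes are in log2 with a standard error. In bulk tissue, fewer cells of a type and less RNA per cell cannot be told apart.

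Total counts ran from 30925368 to 49943021 per library. Genes resembling ribosomal RNA made up 9.67% of KA sham 4, 16.4% of KI sham 2 and 16.3% of KI 3 Class V 1, and between 0.571% and 2% of the other libraries. KA sham 3 and KI sham 4 had the highest summed choroid plexus markers, 623 and 979 CPM, against 14.7 to 76.4 CPM elsewhere. All 7 pyramidal and granule cell markers were detected in every library, and their sum was lowest in KI sham 1 (1230 CPM, against 2135 to 4093 CPM elsewhere).

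In the KI model, 14 of the 74 genes rose and 3 fell, which is 18.9% and 4.05% of them. Over all genes tested 9.99% were called: 4.74% rose and 5.25% fell. The median change was 0.29 for the 74 genes and −0.04 for all genes tested, and 53 of the 74 changes were positive. In the KA model 0 of the 74 genes were called, where 0.172% of all genes tested were called. The genes that rose in KI included Syn1, Syn2, Syn3, Sv2b, Rab3c, Stxbp5, Stxbp5l, Cplx4, Bsn, Pclo, Syt1, Stx16 and Snap91. Those that fell were Stxbp2, Unc13d and Vamp8.

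**Figure D1:**
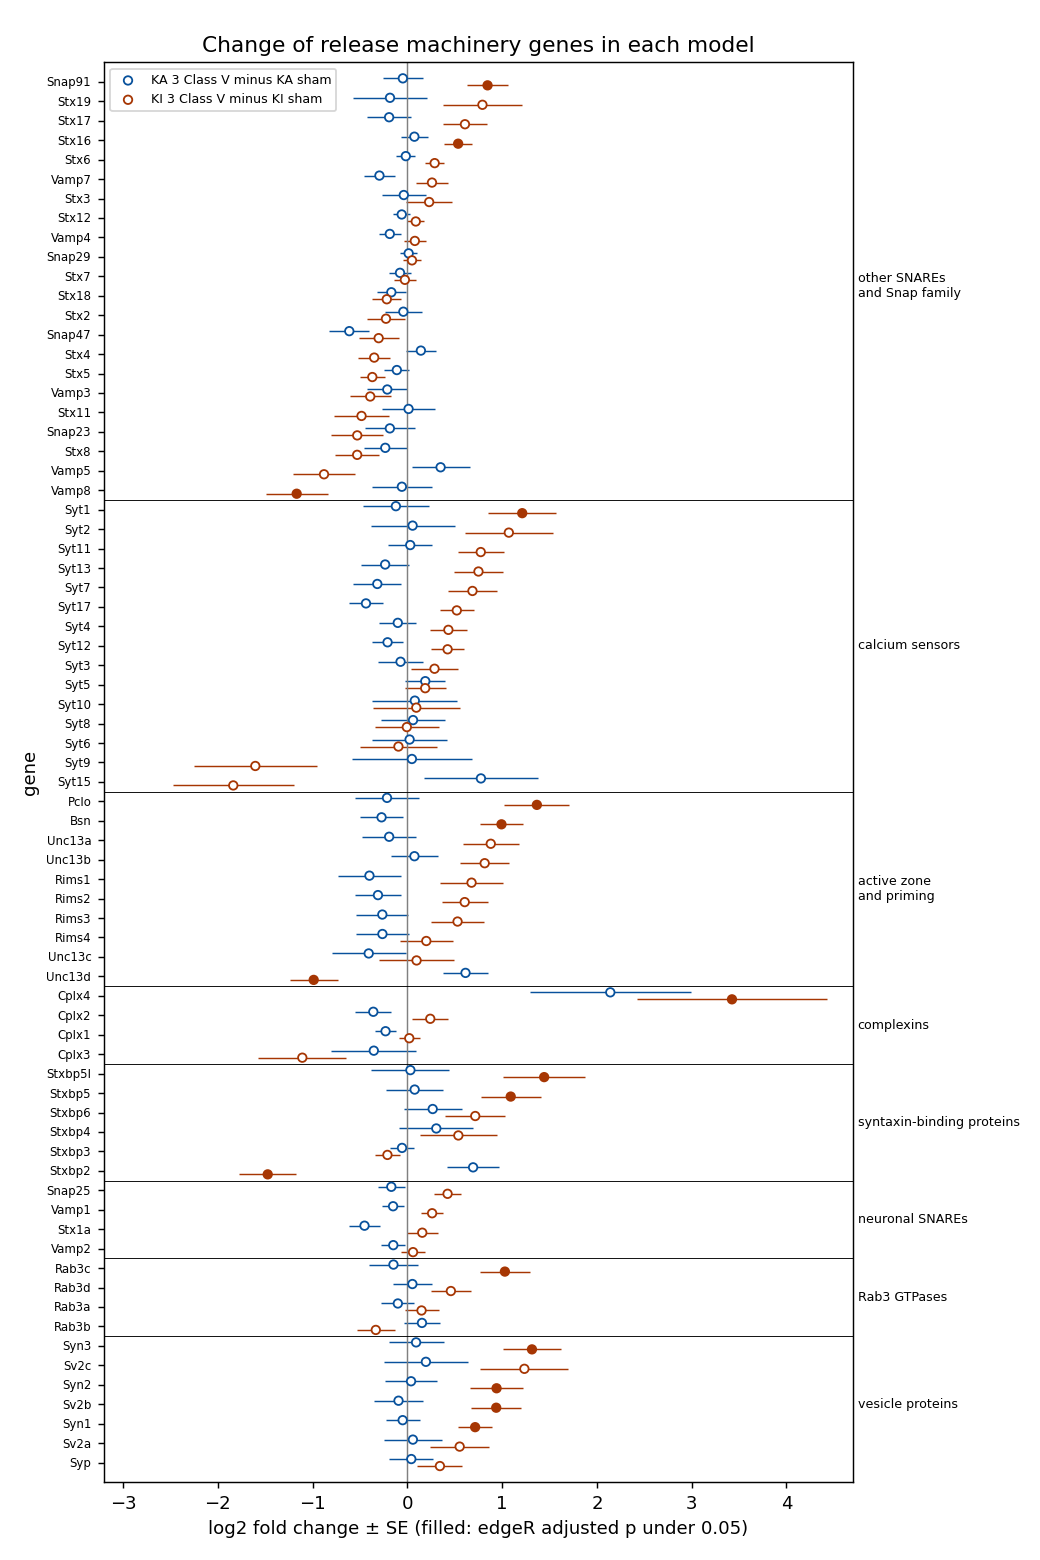
Change of 72 of the genes (log2 fold change ± SE) in KA (blue) and KI (red), grouped by role; filled points have an edgeR adjusted p under 0.05. All 16 filled points belong to KI, 13 to the right of 0 and 3 to the left, and most KA points lie close to 0.

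Promoters of some genes called in KI are shown to make their base composition and motifs visible. The reference table, from RefSeq on the rat assembly GRCr8, gives 250 bases before and 50 after a gene's start, and 59 of the 74 genes matched an entry. Counts were made on the older assembly rn6, so these coordinates apply to the sequence alone. Capitals mark GCGGGGGCG, a core site of Egr transcription factors, on either strand (CGCCCCCGC on the other), and TGACGTCA, the cAMP response element. Syn1 (chrX:3725495-3725794, plus strand) and Syt1 (chr7:46244164-46244463, minus strand) rose in KI, and Stxbp2 (chr12:6487076-6487375, plus strand) fell.
Syn1: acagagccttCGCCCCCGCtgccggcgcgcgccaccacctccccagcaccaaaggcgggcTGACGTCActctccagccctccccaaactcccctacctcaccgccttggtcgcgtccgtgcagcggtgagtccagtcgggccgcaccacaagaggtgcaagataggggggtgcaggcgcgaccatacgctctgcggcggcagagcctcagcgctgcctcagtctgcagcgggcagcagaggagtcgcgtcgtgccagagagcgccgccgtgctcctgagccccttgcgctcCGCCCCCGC
Syt1: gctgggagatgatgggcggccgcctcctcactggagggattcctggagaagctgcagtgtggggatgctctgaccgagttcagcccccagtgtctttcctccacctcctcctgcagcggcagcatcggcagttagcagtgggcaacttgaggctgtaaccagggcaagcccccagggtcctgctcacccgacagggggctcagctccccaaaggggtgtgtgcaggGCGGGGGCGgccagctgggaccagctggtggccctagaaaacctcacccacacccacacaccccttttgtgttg
Stxbp2: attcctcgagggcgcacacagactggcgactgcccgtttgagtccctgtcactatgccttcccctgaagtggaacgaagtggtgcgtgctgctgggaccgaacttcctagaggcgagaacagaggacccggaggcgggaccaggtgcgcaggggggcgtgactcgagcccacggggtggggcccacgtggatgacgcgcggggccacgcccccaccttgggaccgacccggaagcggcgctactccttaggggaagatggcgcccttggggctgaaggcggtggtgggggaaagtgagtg
Around their Egr match, Syn2 (chr4:149858803-149858851, plus strand) and Stxbp5 (chr1:6155532-6155580, minus strand), which also rose in KI, read as follows.
Syn2: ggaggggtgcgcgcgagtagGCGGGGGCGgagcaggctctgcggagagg
Stxbp5: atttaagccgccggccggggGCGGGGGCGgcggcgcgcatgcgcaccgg

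These promoters were rich in G and C. The median G and C content was 62.8% over the promoters of the 59 matched genes, against 51.7% over all promoters of the table, and the median number of CpG was 20 against 7. GCGGGGGCG was found on either strand in 9 of 59 genes (15.3%), namely Syn1, Syn2, Syp, Syt1, Stxbp5, Cplx1, Rab3d, Vamp2 and Vamp4, and in 2.94% of all 27457 genes with an entry. Among matched genes it was in 4 of the 11 that rose in KI and 0 of the 3 that fell. Those 4 are the risen genes shown above, and no risen gene without the motif is shown. The motif itself is made of G and C alone, and the part of base composition in these shares was not tested. The genes with an entry are not limited to the 13338 genes tested, whereas the 59 all belong to them. The part of being expressed in these differences was not tested either.

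Other motifs were rarer. TGACGTCA was in 2 of 59 genes, Syn1 and Vamp1, and in 2% of all genes. TTCAGCACC, the left part of the RE1 site that binds the repressor REST, was in 1 of 59, Unc13a, and in 0.404% of all genes. GAGGAAGT, a core site of the myeloid factor PU.1, was in 0 of 59 and in 2.62% of all genes. All motifs were searched on both strands, and in these genes no match overlapped one of another motif.

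The rises in KI separated the groups completely. For each of the 14 genes, all 4 KI 3 Class V libraries were above all 4 KI shams. Such a separation above the shams held for 26 of the 74 genes (35.1%), against 12.1% of all genes tested. A separation below the shams held for 4 (5.41%), against 8.07% of all genes tested. The 12 genes separated above the shams and not called, named here after their values were seen, included Rab3d, Rims2, Rims3, Snap25, Stx17, Stx6, Stxbp6, Syt11, Syt12, Syt13 and Unc13b. Outside the rule for genes to be named there are 31 members, and in KI their differences ran from −1.84 to 0.79 (17 positive, smallest edgeR adjusted p 0.0633). In KA the same 31 ran from −0.29 to 0.78 (11 positive, smallest edgeR adjusted p 0.586).

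The calls rested on few libraries. The count of 17 became 0 without KI 3 Class V 1, without KI 3 Class V 2 or without KI 3 Class V 3, and 8 without KI 3 Class V 4. Leaving out a sham gave 2 for KI sham 2, 1 for KI sham 3, 33 for KI sham 4 and 11 for KA sham 3, and it lay between 12 and 23 when any other single library was left out. The fit without KI sham 1 called 12 (7.98% of all genes tested), of which 8 were among the 17. It lost 9 of the 17 calls, among them Syn2, Syt1, Stxbp5, Stxbp5l, Sv2b, Stx16, Cplx4 and Vamp8. The share of all genes tested that was called moved with these counts. It was 0.0675% in each of the 3 fits that gave 0, 3.95% when KI 3 Class V 4 was left out, 3.4% for KI sham 2, 0.999% for KI sham 3, 32.3% for KI sham 4 and 6.29% for KA sham 3. Without the 3 libraries rich in ribosomal RNA-like counts the count was 0 (0.128% of all genes, median change 0.36), and without KA sham 3 and KI sham 4 it was 33 (29.6%), both sets being left out after the data were seen. The sign of each called change was kept in every fit that was run. All 17 genes called in KI were separated between the KI groups, so leaving out libraries could hardly change their sign.

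Libraries of the KI shams differed among themselves more than those of KI 3 Class V. The median of the 74 genes' standard deviations (log2 CPM) was 0.16 in KI 3 Class V and 0.51 among KI shams, against 0.13 and 0.35 over all genes tested. KI sham 1 stood apart, with a median deviation of the 74 genes of −0.50 from their mean over all libraries. The other KI shams had −0.10, −0.10 and −0.04, and the KI 3 Class V libraries 0.25, 0.13, 0.29 and 0.12. KI sham 1 was the lowest of all 18 libraries for 35 of the 74 genes, and the highest for 12.

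**Figure D2:**
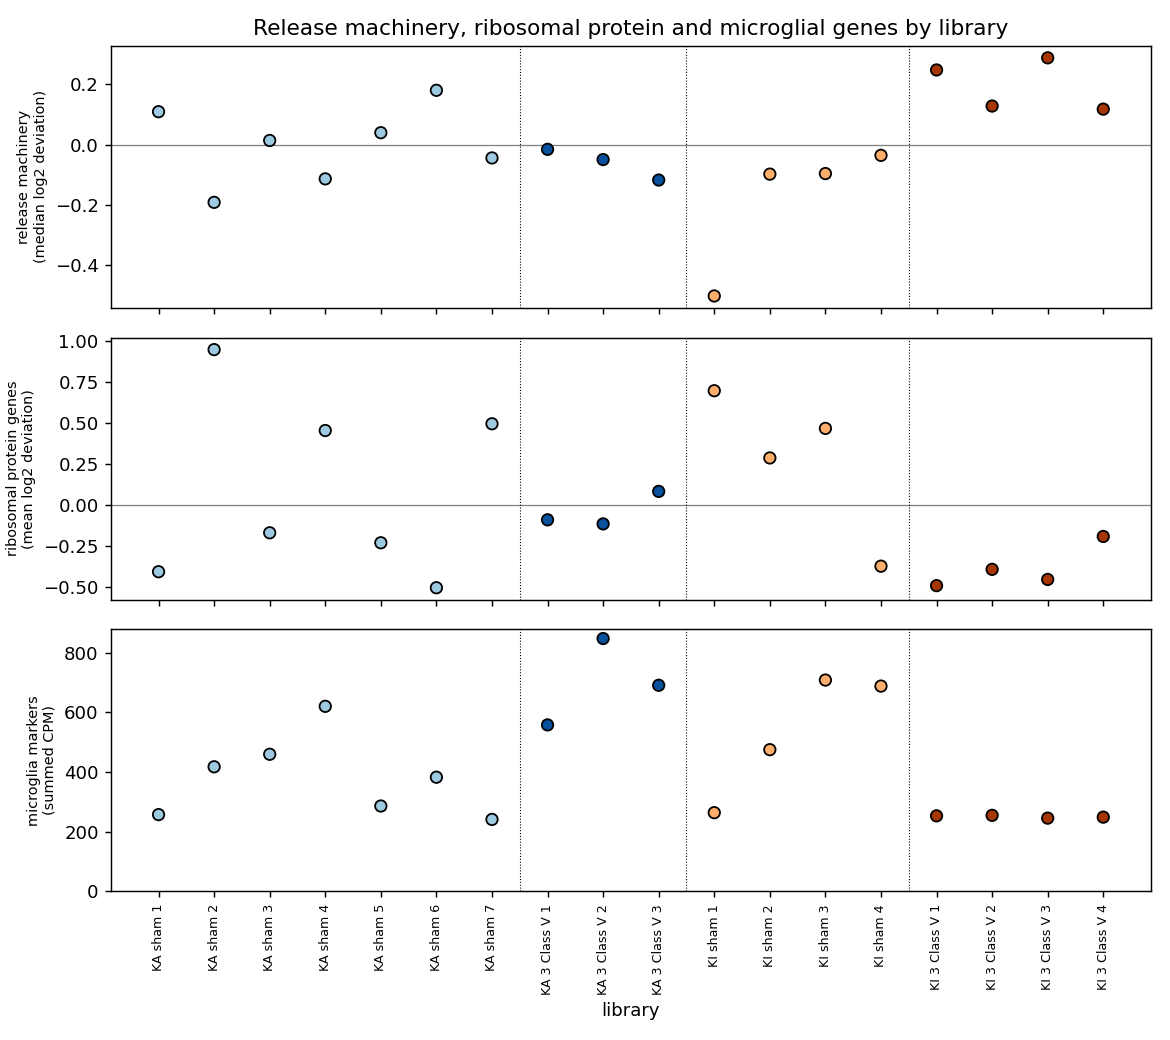
By library, the median log2 deviation of the 74 genes from their mean over all libraries (top), the mean log2 deviation of 86 ribosomal protein genes (middle) and the summed CPM of 7 microglia and macrophage markers (bottom). The 4 KI 3 Class V libraries are the only group entirely above 0 in the top panel and entirely below 0 in the middle one, and they hold a narrow range in the bottom one.

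A set of 86 ribosomal protein genes ran opposite to the KI result. Their mean log2 deviation was 0.70, 0.29, 0.47 and −0.37 in KI sham 1 to 4 and ran from −0.49 to −0.19 in KI 3 Class V. With this score as a covariate, 0 of the 74 genes were called in KI, and 0.817% of all genes tested were. The changes of the 17 genes kept their sign there, with edgeR adjusted p from 0.0599 to 0.305, but for 15 of them the log2 change was smaller by over 1.5 times. Pclo went from 1.37 to 0.66, Syt1 from 1.21 to 0.50, Syn2 from 0.94 to 0.43, Sv2b from 0.94 to 0.38 and Vamp8 from −1.17 to −0.43. Stxbp2 and Unc13d, the exceptions, had −1.31 and −0.95. Neuronal markers summed to 3691 to 4498 CPM in the KI shams, against 4976 to 5638 CPM in KI 3 Class V, and 0 of these 7 markers were called (median change 0.36). Oligodendrocyte markers summed to 15701 to 21054 CPM in the KI shams, against 9815 to 13805 CPM in KI 3 Class V, and 2 of the 7 fell. Other lists overlapped between the KI groups. Pyramidal and granule cell markers summed to 1230 to 2813 CPM in the KI shams and 2328 to 3208 CPM in KI 3 Class V. Astrocyte markers summed to 6166 to 9977 CPM and 7476 to 9072 CPM. Interneuron markers did not overlap, at 447 to 684 CPM and 694 to 779 CPM. The part of cell makeup in the result was not tested.

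Among the vesicle proteins, 4 of 7 genes rose in KI and all 7 changes were positive (median 0.94). Syn1 encodes synapsin I, a phosphoprotein that tethers vesicles to each other and to actin. It stood at 453, 489, 492 and 563 CPM in the shams and 971, 754, 881 and 671 CPM in KI 3 Class V. Every seizure library was above every sham. The change was 0.72 ± 0.18 (SE), a 1.64-fold rise (edgeR adjusted p = 0.0330). In the KA shams Syn1 ran from 421 to 790 CPM with a median of 538, and the KA 3 Class V libraries, at 634, 573 and 527 CPM, lay inside that range.

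Syn2, the synapsin II gene, stood at 159, 363, 367 and 360 CPM in the KI shams, against 731, 515, 672 and 481 CPM in KI 3 Class V. KI sham 1 was far below the other shams, which were close together. The change was 0.94 ± 0.28 (edgeR adjusted p = 0.0458), and without KI sham 1 it was 0.72 (edgeR adjusted p = 0.0850). Syn3, the synapsin III gene, best known from developing neurons, rose from 4.7 ± 1.97 CPM (SD, n = 4) to 11.8 ± 1.28 CPM (SD, n = 4), by 1.32 ± 0.30 (edgeR adjusted p = 0.0282).

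Of the 3 SV2 genes, which encode vesicle glycoproteins, Sv2b rose from 192, 235, 220 and 268 CPM to 500, 440, 501 and 314 CPM. KI 3 Class V 4 was the nearest to the shams. Its change was 0.94 ± 0.26 (edgeR adjusted p = 0.0391). Sv2a, the target of the antiseizure drug levetiracetam, had a difference of 0.55 ± 0.31 and was not called (edgeR adjusted p = 0.206). KI sham 1 and KI sham 4, at 384 and 364 CPM, were above KI 3 Class V 4 at 346 CPM. For Sv2c the change was 1.24 ± 0.46 (edgeR adjusted p = 0.0778). Syp, the synaptophysin gene, had a difference of 0.34 ± 0.24 (edgeR adjusted p = 0.295). Syp was highest in KI sham 1, at 1983 CPM, the library in which Syn2, Syn3 and Sv2b were lowest among the KI shams.

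Rab3 GTPases mark vesicles and bind RIM at the active zone. Rab3c rose in KI, from 6.74, 16, 21.4 and 18.4 CPM to 35.8, 28.8, 34.7 and 28.4 CPM, a change of 1.03 ± 0.26 (edgeR adjusted p = 0.0328). KI sham 1 was again the lowest, and the groups did not overlap. Rab3a, the main neuronal form, had a difference of 0.15 ± 0.18 and Rab3b of −0.33 ± 0.20, with edgeR adjusted p of 0.548 and 0.225. The fourth gene, Rab3d, named here after its values were seen, was separated in KI without being called (0.46 ± 0.21, edgeR adjusted p = 0.125).

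None of the 5 neuronal SNARE genes was called in KI, though all 5 changes were positive and the median was 0.26. At an unadjusted p under 0.05, 3 of the 5 would count, where 35.4% of all genes tested did. Snap25 stood at 1344, 1206, 1148 and 1184 CPM in the shams and 1729, 1678, 1758 and 1389 CPM in KI 3 Class V. The groups did not overlap, and KI 3 Class V 4 lay just above KI sham 1. Its change was 0.42 ± 0.15 (edgeR adjusted p = 0.0621).

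Stx1a, a syntaxin gene of the presynaptic membrane, had a difference of 0.16 ± 0.16 in KI (edgeR adjusted p = 0.486). The vesicle SNARE genes Vamp1 and Vamp2 had differences of 0.26 ± 0.12 and 0.06 ± 0.13, with edgeR adjusted p of 0.120 and 0.746.

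Among the syntaxin-binding proteins, 3 of 7 genes rose and 1 fell in KI. Stxbp5 and Stxbp5l encode tomosyn 1 and tomosyn 2, which bind syntaxin and SNAP-25 and inhibit priming. Stxbp5 rose from 33.2, 58.6, 57.4 and 106 CPM to 144, 127, 144 and 129 CPM, by 1.09 ± 0.32 (edgeR adjusted p = 0.0422). Stxbp5l rose from 3.60, 13.6, 15.8 and 27.7 CPM to 44.6, 39.8, 43.6 and 37.9 CPM, by 1.44 ± 0.43 (edgeR adjusted p = 0.0455). For both, KI sham 1 was the lowest and KI sham 4 the highest of the shams, while the seizure libraries lay close together.

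Stxbp2 went the other way. Its product, Munc18-2, serves granule release in immune and blood cells. It stood at 4.05, 6.34, 12.7 and 9.62 CPM in the KI shams, against 2.83, 3.01, 2.87 and 3.09 CPM in KI 3 Class V. All seizure libraries were below all shams, and KI sham 3 was the highest. The change was −1.47 ± 0.30, a 2.78-fold fall (edgeR adjusted p = 0.0221).

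**Figure D3:**
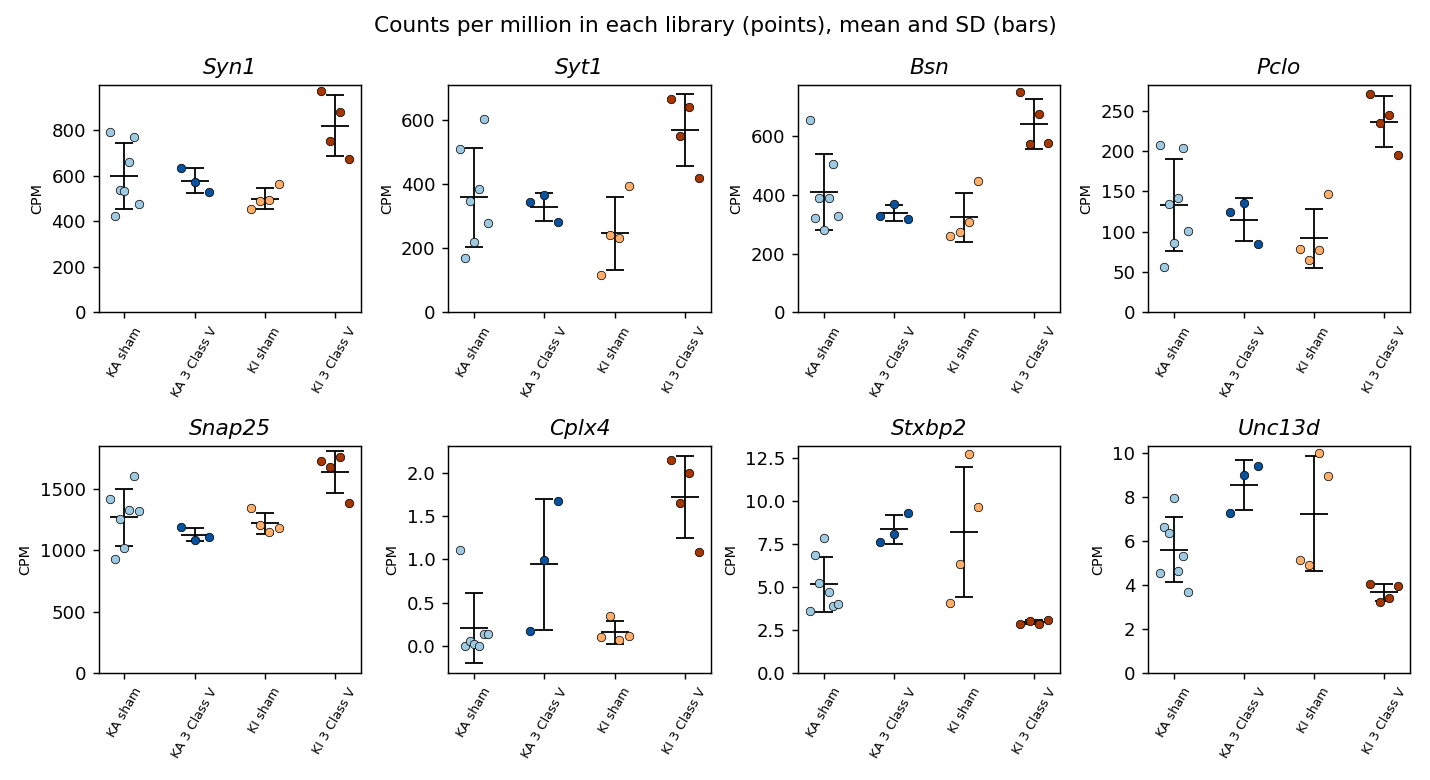
CPM of 8 of the genes in each library (points), with group mean and SD (bars). Syn1, Syt1, Bsn, Pclo and Cplx4 were called as higher in KI, Stxbp2 and Unc13d as lower, and Snap25 was separated between the KI groups without being called.

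Complexins bind the assembled SNARE complex. Cplx1 and Cplx2, the common forms of forebrain neurons, had differences in KI of 0.02 ± 0.11 and 0.24 ± 0.19, with edgeR adjusted p of 0.903 and 0.360. Cplx3, of retina and some cortical neurons, had a difference of −1.11 ± 0.46 (edgeR adjusted p = 0.105). Cplx4, best known from the retina, was near the limit of counting. It had 3, 11, 3 and 5 counts in the KI shams and 68, 66, 71 and 46 counts in KI 3 Class V, or 0.161 ± 0.128 and 1.72 ± 0.47 CPM (SD, n = 4 and 4). The groups were far apart, and the fitted change was 3.43 ± 1 (edgeR adjusted p = 0.0428).

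Cplx4 also varied within the KA groups. Its counts in KA sham 1 to 7 were 40, 0, 3, 1, 0, 6 and 5, where 0 counts allow up to 0.0918 CPM in KA sham 2 and 0.0728 CPM in KA sham 5 (3 counts, for counting error only). The KA 3 Class V libraries had 7, 53 and 66 counts. On the CPM scale KA sham 1 lay within the seizure group, and the other 6 shams lay below it. The change of 2.14 ± 0.85 was not called in KA (edgeR adjusted p = 0.366), and without KA sham 1 it was 3.78 and was called (edgeR adjusted p = 0.0266).

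Active zone scaffolds and priming factors gave 2 rises and 1 fall among 10 genes in KI, with 9 of the 10 changes positive (median 0.64). Bsn, the Bassoon gene, stood at 262, 275, 309 and 448 CPM in the shams and 750, 573, 676 and 576 CPM in KI 3 Class V. The change was 0.99 ± 0.23, a 1.99-fold rise (edgeR adjusted p = 0.0282). Pclo, the Piccolo gene, rose from 78.7, 64.5, 77.1 and 146 CPM to 271, 235, 245 and 195 CPM, by 1.37 ± 0.34 or 2.58-fold (edgeR adjusted p = 0.0326). In both genes KI sham 4 was the sham nearest to the seizure libraries.

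Munc13 proteins, the products of the Unc13 genes, make docked vesicles ready to fuse. Unc13a and Unc13b, the main priming factors of forebrain synapses, had differences of 0.88 ± 0.29 and 0.82 ± 0.26, close to the threshold and not called, with edgeR adjusted p of 0.0585 and 0.0504. Unc13c, a cerebellar form, had a difference of 0.10 ± 0.39 (edgeR adjusted p = 0.870). Unc13d encodes Munc13-4, which works with Munc18-2 in immune cells. It fell from 5.12, 4.91, 10 and 8.94 CPM to 4.06, 3.23, 3.41 and 3.95 CPM, by 0.99 on the log2 scale (SE 0.25, edgeR adjusted p = 0.0329).

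RIM proteins tie vesicles to calcium channels. Rims1 stood at 37.0, 160, 252 and 152 CPM in the KI shams, against 260, 202, 253 and 248 CPM in KI 3 Class V. KI sham 1 was low and KI sham 3 lay within the seizure range. The change of 0.68 ± 0.33 was not called (edgeR adjusted p = 0.152), and neither was that of Rims2 (0.61 ± 0.24, edgeR adjusted p = 0.0940). Without KI sham 1 the changes of Rims1 and Rims2 were 0.35 and 0.33, also not called. Without KI sham 3 and KI sham 4 they were 1.26 and 0.96 (edgeR adjusted p = 0.0236 and 0.0242). Both were called there, where 28% of all genes tested were called.

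The synaptotagmin family, calcium sensors and relatives such as Syt11 and Syt17 that do not bind calcium, had 1 rise among 15 genes. Syt1, the sensor for fast synchronous release, stood at 117, 242, 231 and 395 CPM in the shams and 667, 552, 643 and 420 CPM in KI 3 Class V. The groups were separate, with KI sham 4 and KI 3 Class V 4 close to each other. The change was 1.21 ± 0.36, a 2.32-fold rise (edgeR adjusted p = 0.0450). Syt11, which does not bind calcium and acts in vesicle retrieval, had a difference of 0.77 ± 0.24 and was not called, with an edgeR adjusted p just above the threshold that rounds to 0.05.

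Other named synaptotagmins were not called in KI. Syt2, a fast sensor of fast-firing neurons, had a difference of 1.07 ± 0.46, and Syt7, a slow sensor of asynchronous release, of 0.69 ± 0.26, with edgeR adjusted p of 0.114 and 0.0781. Syt4, an activity-regulated form, had a difference of 0.43 ± 0.20 and Syt10 of 0.09 ± 0.46, with edgeR adjusted p of 0.128 and 0.892. Syt10 stood at 0.830, 0.414, 1.08 and 3.91 CPM in the KI shams. All KI 3 Class V libraries, at 1.58 to 1.86 CPM, lay above KI sham 1 to 3 and below KI sham 4. Syt15, named after its values were seen, was also high in KI sham 4 (4.28 CPM, against 0.380 to 0.762 CPM in KI sham 1 to 3). Syt9 stood at 0.623, 1.08, 1.62 and 14.1 CPM in the KI shams, against a range of 1.11 to 1.86 CPM in KI 3 Class V. Its change of −1.60 ± 0.65 (edgeR adjusted p = 0.0955) rested on KI sham 4, without which it was 0.33 (edgeR adjusted p = 0.340). KI sham 4 was also the library with the highest summed thalamus markers (177 CPM, against 53.1 to 123 CPM elsewhere) and choroid plexus markers (979 CPM), and the part of either in the Syt9 level was not tested.

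For the remaining 22 syntaxin, Snap and Vamp genes, those outside the neuronal SNARE group, the median change in KI was −0.12. Of them 2 rose and 1 fell. Snap91 matches the symbol rule but encodes AP180, a clathrin assembly protein that retrieves vesicle membrane and is no SNARE. It rose from 148, 282, 313 and 320 CPM to 533, 446, 516 and 417 CPM, by 0.85 ± 0.22 (edgeR adjusted p = 0.0335). Stx16, a syntaxin of the trans-Golgi network, rose from 37.2 ± 6.47 to 53.9 ± 3.18 CPM (SD, n = 4 and 4), by 0.54 ± 0.15 (edgeR adjusted p = 0.0395).

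Vamp8, a SNARE of endosomes, autophagosomes and secretory granules, fell in KI. It stood at 25.2, 17.4, 27.6 and 14.7 CPM in the shams and 7.53, 9.77, 9.52 and 11 CPM in KI 3 Class V. No seizure library reached a sham. The change was −1.17 ± 0.33, a 2.25-fold fall (edgeR adjusted p = 0.0394). Snap47, a SNAP-25 relative, had a difference of −0.30 ± 0.21 (edgeR adjusted p = 0.301). The other 18 genes of this group had changes from −0.88 to 0.79 in KI, 8 of them positive.

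**Figure D4:**
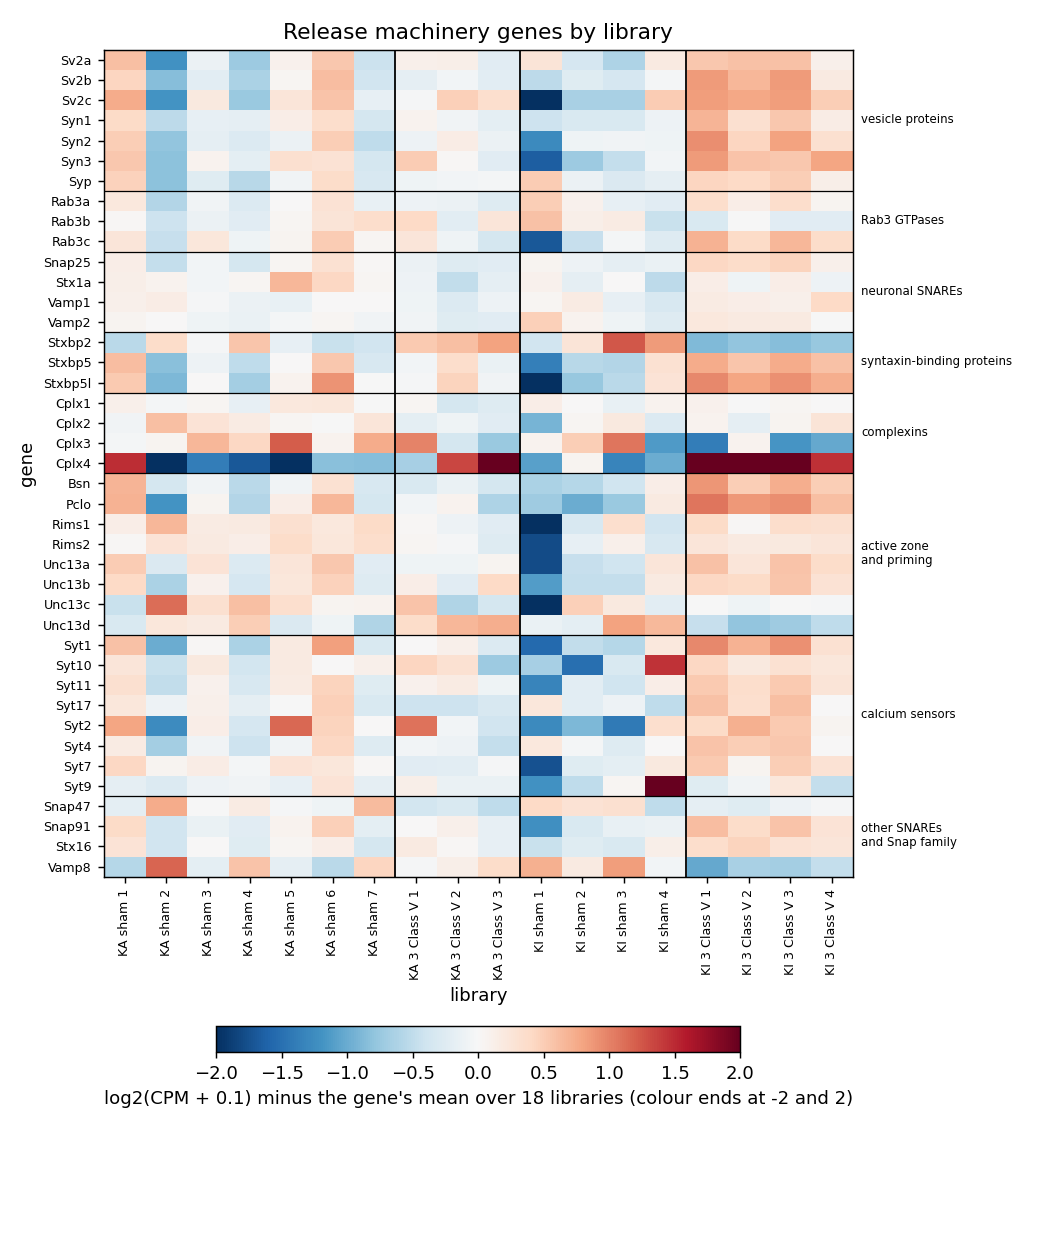
Heat map of 41 named genes by library, as the deviation of log2(CPM + 0.1) from the mean of that gene in the 18 libraries; colours end at −2 and 2. The KI 3 Class V columns are mostly red for vesicle proteins, syntaxin-binding proteins and active zone genes, KI sham 1 is deep blue for many of the same rows, and Stxbp2, Unc13d and Vamp8 run opposite to their neighbours.

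Stxbp2, Unc13d and Vamp8 fell in KI beside microglia and macrophage markers, but among the KI shams Vamp8 did not follow these markers. All 7 of these markers were detected in every library, none at 0. Their summed level was 264, 475, 708 and 688 CPM in KI sham 1 to 4 and 246 to 255 CPM in KI 3 Class V, and 4 of the 7 fell. Stxbp2 and Unc13d were highest in KI sham 3 and KI sham 4, the shams with the highest marker sums, and Vamp8 in KI sham 1 and KI sham 3. The part of these cells in the 3 falls was not tested. Without KI sham 3 and KI sham 4 the changes in KI were −0.84 for Stxbp2 (edgeR adjusted p = 0.0408), −0.47 for Unc13d (edgeR adjusted p = 0.156) and −1.19 for Vamp8 (edgeR adjusted p = 0.0339).

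In the KA model the 74 genes stayed near 0 as a group, with a median change of −0.06 (−0.01 for all genes tested), 29 positive and 45 negative. The edgeR quasi-likelihood test called 0 of them, the smallest edgeR adjusted p was 0.266, and 6 had an unadjusted p under 0.05 (9.93% of all genes tested did). DESeq2 also called 0 of 74 (1.9% of all genes tested), and limma-voom with quality weights called 5, where it called 5.44% of all genes tested. A separation of all KA 3 Class V libraries below all KA shams held for 7 genes (9.46%), against 2.7% of all genes tested. Stxbp4 alone, named after its values were seen, was separated above, against 2.95% of all genes tested.

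Snap47 had the smallest p. It stood at 56.5, 59.3 and 51.8 CPM in KA 3 Class V and from 63.9 to 123 CPM in the KA shams, with a median of 73.2. The groups did not overlap, but the change of −0.61 ± 0.21 was not called (edgeR adjusted p = 0.266). Stx1a stood at 139, 106 and 132 CPM in KA 3 Class V, below all 7 shams (144 to 235 CPM, median 157). Its change was −0.45 ± 0.16 (edgeR adjusted p = 0.285).

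Syt17 stood at 43.7, 43.4 and 46.3 CPM in KA 3 Class V and from 46.8 to 81.1 CPM in the KA shams (median 57.8), a change of −0.44 ± 0.18 (edgeR adjusted p = 0.375). Rims1 and Cplx2, with changes of −0.40 ± 0.33 and −0.36 ± 0.19, were also separated below the shams without being called (edgeR adjusted p = 0.722 and 0.567). The other members separated below were Vamp4 and Vamp7, named after their values were seen. Of the neuronal SNARE genes, all 5 had negative changes in KA, from −0.45 to −0.01.

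The values of the genes called in KI were mixed in KA. For 13 of the 14 that rose in KI the KA change lay between −0.27 and 0.09, with edgeR adjusted p from 0.724 to 0.989, and the exception was Cplx4. Stxbp2 and Unc13d, which fell in KI, had positive KA changes of 0.69 ± 0.27 and 0.61 ± 0.24 (edgeR adjusted p = 0.362 and 0.336). Vamp8 had a difference of −0.06 ± 0.31 in KA (edgeR adjusted p = 0.973).

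A direct test of the KA change minus the KI change called 4 of the 74 genes, 2 positive and 2 negative (2.7% each), where 3.15% of all genes tested were positive and 0.652% negative (3.8% in all). At an unadjusted p under 0.05 it was 35 of the 74, against 20.5% of all genes tested. The median difference was −0.46 over the 74 genes and 0.01 over all genes tested, with 54 negative and 20 positive. The 14 genes that rose in KI were chosen by a rise that is subtracted here, which favours a negative sign. The difference was negative in each of them, from −1.58 to −0.46, and only that of Bsn was called. For the other 13, a p above the threshold does not show that the models act alike. The count of 4 was 0 without KA 3 Class V 3, 1 without KA 3 Class V 2 or KI 3 Class V 3, 8 without KI sham 1 and 10 without KA sham 2. It was 2 without KA sham 6 (2.47%), KA 3 Class V 1 (3.05%), KI sham 2 (3.29%), KI sham 3 (1.54%), KI 3 Class V 1 (0.96%) or KI 3 Class V 2 (1.52%).

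Stxbp2 had a difference of 2.17 ± 0.40 (edgeR adjusted p = 0.0139). It stood at 7.60, 8.10 and 9.30 CPM in KA 3 Class V, against a KA sham range of 3.59 to 7.83 CPM with a median of 4.73. In KA, 2 of the 3 seizure libraries were above every sham, while the KI seizure libraries were below all of theirs. The call was lost when KA 3 Class V 3 was left out (edgeR adjusted p = 0.0506) and held without any other single library. Unc13d differed by 1.60 ± 0.34 (edgeR adjusted p = 0.0193), with 7.28, 8.99 and 9.40 CPM in KA 3 Class V and 3.67 to 7.97 CPM in the KA shams (median 5.32). That call was lost without KA 3 Class V 2, KA 3 Class V 3 or KI 3 Class V 3, with edgeR adjusted p of up to 0.0680.

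Microglia and macrophage markers moved alongside: 5 of 7 had a positive difference that was called, and their sum was 241 to 620 CPM in the KA shams and 558 to 847 CPM in KA 3 Class V. Their part in the Stxbp2 and Unc13d results was not tested.

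Bsn differed by −1.27 ± 0.32 (edgeR adjusted p = 0.0386). In KA it stood at 328, 370 and 320 CPM in the seizure libraries, inside the sham range of 281 to 655 CPM (median 389). The call held in 8 of the 18 fits that left out 1 library, with edgeR adjusted p of up to 0.107. It was lost without KA sham 6, KI sham 2, KI sham 3 or any 1 of the 7 seizure libraries. Syt17, a synaptotagmin relative that does not bind calcium, differed by −0.96 ± 0.25 (edgeR adjusted p = 0.0419). It stood at 68.1, 50, 54.3 and 41.0 CPM in the KI shams, against 87.0, 73.3, 88.0 and 58.2 CPM in KI 3 Class V, and its change in KI alone, 0.52 ± 0.18, was not called (edgeR adjusted p = 0.0612). Its call of the difference held in 5 of those 18 fits. It was lost without KA sham 1, 3, 5 or 6, any KA 3 Class V library, KI sham 2, 3 or 4, or KI 3 Class V 1, 2 or 3.

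Between the sham groups, 0 of the 74 genes were called by edgeR (0.0075% of all genes tested were), and 16 had an unadjusted p under 0.05, against 8.63% of all genes tested. DESeq2 called 0 (0.0825% of all genes tested) and limma-voom with quality weights 2 (3.08%). The median of KA sham minus KI sham was 0.15. For each of the 14 genes that rose in KI the difference was positive, from 0.15 to 0.70, with edgeR adjusted p from 0.564 to 0.895. Low KI shams helped to choose these genes and are subtracted here, so a positive sign was favoured by the choice. Of the 74 genes, 1 was higher in every KA sham than in any KI sham (1.35%), against 0.48% of all genes tested.

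Individual KA shams reached the kindled range. KA sham 1 was at or above the lowest KI 3 Class V library for 12 of the 14 genes that rose in KI, and KA sham 6 for 9. KA 3 Class V 3 was so for 1 gene, and each of the other 11 libraries outside KI 3 Class V for 0. The ribosomal protein score was −0.41 in KA sham 1 and −0.51 in KA sham 6, and from −0.49 to −0.19 in KI 3 Class V. KI sham 4 (−0.37) and KA sham 5 (−0.23), each with 0 of the 14 genes, also lay in that score range. The part of the score in these levels was not tested. KA sham 2, with the highest score (0.95), was lowest or tied lowest of all 18 libraries for 13 of the 74 genes and highest for 12. Pclo (56.3 CPM) and Sv2a (139 CPM) were among the former, and Rims1 (315 CPM) and Cplx2 (590 CPM) among the latter.

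Partners of the release machinery outside the 74 genes were read from a list of 43, of which 40 were tested. In KI 12 rose and 0 fell, where 4.74% of all genes tested rose and 5.25% fell, in KA 0 were called, and the KI median was 0.62. Active zone scaffolds had the most calls, 5 of 7. Erc2, whose product binds RIM and Bassoon, rose from 40.7 ± 19.3 to 112 ± 18.7 CPM (SD, n = 4 and 4), by 1.46 ± 0.37 (edgeR adjusted p = 0.0331). The others were Erc1 (0.95), Rimbp2 (0.95), which links RIM to calcium channels, and the liprin genes Ppfia2 (1.06) and Ppfia3 (0.37).

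The further partners that rose in KI came from most steps of the vesicle cycle. Nsf, the ATPase that takes used SNARE complexes apart, rose by 1.03 ± 0.32 (edgeR adjusted p = 0.0487). Slc17a7, the vesicular glutamate transporter VGLUT1, rose from 1439 ± 212 to 2257 ± 311 CPM (SD, n = 4 and 4), by 0.65 ± 0.20 (edgeR adjusted p = 0.0495). Doc2b, a calcium sensor of spontaneous release, rose by 0.93. Cacna1b, the N-type calcium channel, rose by 1.10 and the neurexin Nrxn3 by 1.19. In endocytosis, Synj1 rose by 1.07 and Amph by 0.80. Slc32a1, the vesicular GABA transporter, named beside Slc17a7 as its inhibitory counterpart, had a difference of 0.55 ± 0.25 (edgeR adjusted p = 0.124).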

How the data were processed

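The deposited table holds whole-number read counts per gene symbol for 18 RNA-seq libraries, and every column was matched to a sample by its title. The build rn6 and the tools HISAT2, featureCounts, Trimmomatic, FastQC and DESeq2 are named in the submitters' processing notes. The sources used here give no version, annotation or strand setting, so reads of overlapping or antisense genes cannot be told apart. From the authors' counts, CPM were computed with TMM factors, and edgeR 4.0.16 (R 4.3.3) fitted a quasi-likelihood model with 1 mean per group to all 18 libraries (14 residual degrees of freedom) after its expression filter. The 4 contrasts were KA, KI, KA minus KI, and KA sham minus KI sham, with Benjamini-Hochberg adjustment over 13338 genes and a threshold of 0.05. The code was tested on simulated data. Counts of libraries in a group differed beyond sampling noise (chi-square per degree of freedom at least 19.8 over 36 pairs), so none was a duplicate.

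The genes named are a set of well-known members, every member called in any contrast, and in each role the member with the smallest p in KA and in KI. Members, lists and motifs were chosen with earlier results of these data known. Values of some members are not reported here, though the counts and medians include them. Alternatives were DESeq2 1.42.0, limma-voom (limma 3.58.1), other scalings and filters, a replicate block, a ribosomal protein covariate, each model fitted alone, and leaving out libraries.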

Additional observations from a re-analysis of the deposited data

Results flagged for a closer look

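In 12 of 123 combinations of a gene and a group, 1 library stood far from the others of its group by Dixon's criterion, which chance gives in about 1 in 20. KI sham 1 was low for Syn2 (159 CPM, the other KI shams 360 to 367) and high for Syp (1983 CPM, 1143 to 1285). KI sham 4 was high for Syt9 (14.1 CPM, 0.623 to 1.62) and low for Snap47 (51.3 CPM, 89.6 to 96.7). KI sham 2 was high for Cplx4 (0.351 CPM, 0.0737 to 0.117).

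KI 3 Class V 4 was low for Sv2a (346 CPM, the others of its group 466 to 484), Syt4 (139 CPM, 194 to 205) and Vamp2 (1066 CPM, 1211 to 1237), and KI 3 Class V 2 was high for Cplx3 (5.76 CPM, 2.05 to 2.67). Among the KA shams, KA sham 1 was high for Cplx4 (1.10 CPM, 0 to 0.142), KA sham 2 for Rims1 (315 CPM, 218 to 260) and KA sham 6 for Syt9 (1.94 CPM, 1.29 to 1.5).

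The KA change minus the KI change was called by edgeR for Stxbp2 (2.17), Unc13d (1.60), Bsn (−1.27) and Syt17 (−0.96).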

How the results depend on the processing

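The median changes were steadier than the calls. Over single-library omissions the median of the 74 genes was −0.11 to −0.04 in KA, 0.26 to 0.37 in KI, −0.53 to −0.36 for KA minus KI and 0.10 to 0.24 for the shams. It moved beyond the spread between libraries (0.14) only for KA minus KI, to −0.27 with the ribosomal protein covariate and −0.63 without KI sham 3 and KI sham 4. No called change reversed its sign, which the complete separation of the KI groups favoured for the genes called in KI.

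The share of all genes called, given in parentheses, moved with the members' counts. In KI, 17 members were called by edgeR (9.99%), 32 by DESeq2 (22.2%), 52 by limma-voom with quality weights (55.2%), 34 without KI sham 3 and KI sham 4 (28%), 33 without the choroid-rich libraries (29.6%) and 10 with each model fitted alone (5.85%). The count was 0 with the covariate (0.817%), without the rRNA-rich libraries (0.128%) and with the replicate block (0%). Single-library omissions gave 0 to 33 (0.0675% to 32.3%). With the covariate, 15 of the 17 changes were smaller by over 1.5 times. For KA minus KI the 4 calls (3.8%) became 9 with DESeq2 (8.37%), 43 with limma-voom (35.8%), 9 with the covariate (8.04%), 8 without KI sham 3 and KI sham 4 (4.87%), 2 without the rRNA-rich libraries (2.82%) and 0 with the replicate block (0.0825%). Single omissions gave 0 (without KA 3 Class V 3, 0.417%) to 10 (without KA sham 2, 5.76%). In KA, 0 became 5 with limma-voom (5.44%) and 1 with the covariate (1.53%), and was 0 to 1 over single omissions. Between shams, 0 became 2 with limma-voom (3.08%) and 3 without KI sham 3 and KI sham 4 (4.67%). The cause of these changes was not tested.

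Same-numbered libraries did not deviate together (correlations −0.15 to 0.01 in KA and −0.17 to −0.07 in KI, 0 best with their own number). No pairing beyond the shared number was seen, and so few libraries cannot exclude one. The sham contrast could not be fitted with the block, nor the sham and KA minus KI contrasts with each model alone. Low counts limit precision for Stx19 (1 to 15), Syt8 (7 to 21), Stx11 (9 to 40) and Cplx4 (0 to 71), chosen by their counts.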
